A study of Mus musculus with 12 samples.

Results

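The 39 Hox cluster genes of the mouse were followed through 12 RNA sequencing libraries of embryonic fibroblasts with or without deletion of Htt, the gene for huntingtin. Members were all genes of the count files whose symbol is Hoxa, Hoxb, Hoxc or Hoxd followed only by digits, 39 of 55487 genes, and no measured value entered that choice. Cluster A holds 11 members (chromosome 6, 52155590 to 52260880, minus strand), cluster B 10 (chromosome 11, 96194316 to 96368256, plus strand), cluster C 9 (chromosome 15, 102921103 to 103036852, plus strand) and cluster D 9 (chromosome 2, 74668310 to 74765142, plus strand), in GRCm38. All cells were primary fibroblast cultures from E13.5 embryos with floxed alleles of the gene (HTTfl/fl). HTT-deleted cells had received a lentivirus encoding Cre recombinase and GFP, control cells a lentivirus encoding an H2B-eGFP fusion, and both were taken 7 days after transduction. From each suspension 1 part in 15 served for total RNA, and ribosomes were purified from the rest to give ribosome-associated RNA, so 4 groups of 3 libraries resulted: control and HTT-deleted cells, each as total and as ribosome-associated RNA. Replicates were independent by culture or by passage, and which of these applied to a given number is not stated. The p-values therefore rest on how far such cultures or passages differ.

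Hox genes encode homeodomain transcription factors that tell embryonic cells where they lie along the head-to-tail axis and, in the limb, from shoulder or hip to digits. Genes of like position in the 4 clusters are paralogs and carry the same number, from low numbers for anterior or proximal positions to high numbers for posterior or distal ones. Fibroblasts are known to keep the Hox code of the body site they came from when they are grown in culture. The clusters also encode microRNAs, short RNAs whose seed (bases 2 to 8) pairs with target transcripts.

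The mature sequences of 4 such microRNAs, from RefSeq for GRCm38.p6, are shown because their seeds match sites in Hox transcripts that the libraries measured. Capitals mark the seed.
miR-10a-5p: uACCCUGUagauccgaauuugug
miR-10b-5p: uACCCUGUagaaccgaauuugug
miR-196a-5p: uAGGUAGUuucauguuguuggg
miR-196b-5p: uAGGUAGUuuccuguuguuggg
The first pair share the seed ACCCUGU and the second pair the seed AGGUAGU. Mir10a lies in cluster B, Mir10b inside the annotated spans of Hoxd3 and Hoxd4, and Mir196b inside that of Hoxa9. Of the 2 copies of Mir196a, 1 lies in cluster B and 1 in cluster C, between Hoxc10 and Hoxc9. The latter falls inside the annotated span of Hoxc5 (102967443 to 103017429), which also takes in Hoxc9, Hoxc8 and Hoxc6. An 8-base site for the miR-196 seed, ACTACCTA, stood in the 3' UTRs of 5 of 39 members (Hoxa5, Hoxa7, Hoxb6, Hoxb7 and Hoxc8), against 1.27% of 20832 genes with an annotated 3' UTR. Hoxa7 held 4 of these sites. The miR-10 site, ACAGGGTA, stood in 3 of 39 members (Hoxa3, Hoxb3 and Hoxd1), against 2.10% of genes. Hoxb8 holds no exact seed match, yet 1 window of its 3' UTR paired with miR-196a-5p over 22 of 22 bases, 21 as Watson-Crick pairs and 1 as a G:U pair. In that window, the Hoxc8 window and the Hoxa3 window below, capitals mark the Watson-Crick pairs of the whole microRNA (Hoxb8) or the seed match (Hoxc8, Hoxa3).
Hoxb8: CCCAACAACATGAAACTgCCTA
Hoxc8: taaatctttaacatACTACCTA
Hoxa3: ctctttgataagaaACAGGGTA
The levels of the microRNAs themselves were not analysed here.

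Promoter sequences were found in RefSeq for 22 of 39 members (24 starts). The 250 bases before the start of Hoxd13 and of Hoxb8 are shown, because these genes lay on opposite sides in the difference between cultures described below. The Hoxd13 stretch is chr2:74667975-74668224 and the Hoxb8 stretch chr11:96281655-96281904, both on the plus strand of GRCm38.p6. Capitals mark 3 motifs searched on both strands: the TATA box with the letters TATAAA, the motif of posterior HOX and CDX proteins with the letters TTTATNG, and the motif of HOX bound with PBX, with the letters TGATNNAT. These are matches of letters at any distance from the start, so a TATAAA match need not be a working TATA box. Matches of the first and second can overlap.
Hoxd13: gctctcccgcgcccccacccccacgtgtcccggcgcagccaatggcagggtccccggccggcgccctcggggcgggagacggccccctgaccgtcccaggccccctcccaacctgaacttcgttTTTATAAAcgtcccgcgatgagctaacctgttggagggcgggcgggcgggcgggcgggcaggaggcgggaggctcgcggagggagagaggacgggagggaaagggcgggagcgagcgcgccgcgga
Hoxb8: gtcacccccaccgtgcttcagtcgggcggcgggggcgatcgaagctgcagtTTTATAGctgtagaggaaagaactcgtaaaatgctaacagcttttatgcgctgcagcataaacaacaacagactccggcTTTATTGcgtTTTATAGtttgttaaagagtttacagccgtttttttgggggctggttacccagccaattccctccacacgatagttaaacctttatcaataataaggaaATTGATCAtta
The Hoxd13 stretch held 31 CG dinucleotides in 250 bases, the Hoxb8 stretch 12. Over 300 bases (250 before and 50 after the start), the median was 14.5 in Hox promoters and 7 in all 32851 promoters. TATAAA stood in 4 of 24 Hox promoters, against 13.6% of all promoters. TTTATNG stood in 2, those of Hoxb8 and Hoxd4, against 10.9%. TGATNNAT stood in 4, against 8.85%.

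The libraries summed to 16789356 to 30571501 gene counts, so 3 counts, the floor used here, stand for 0.0981 to 0.179 counts-per-million (CPM). CPM here are scaled by TMM, which corrects for a few genes taking up much of a library. Htt was at 45.7 to 64.5 CPM in control and 10.6 to 15.5 CPM in HTT-deleted total RNA. On ribosomes it was at 20.1 to 32.0 CPM in control and 3.98 to 12.8 CPM in HTT-deleted cells. Those ranges do not overlap, although Htt did not pass the test adjusted over all genes (edgeR adjusted p = 0.812 in total RNA and 1.00 on ribosomes). The HTT-deleted total RNA library of replicate 1 stood apart: the SD of its log2 deviations from the other total RNA libraries was 0.69 across genes, against 0.25 to 0.38 in the other 5. Its deviations correlated with exonic length across genes at a Spearman rho of -0.469, against 0.179 to 0.309 in those 5. The control ribosome-associated library of replicate 1 also differed in this, at -0.388, where the 5 others of that fraction lay between 0.034 and 0.142. All 14 fibroblast markers were measured, with sums of 28356 to 54020 CPM. The 18 macrophage markers summed to 806 to 3304 CPM in control total RNA and 1840 to 7596 CPM in HTT-deleted total RNA. In ribosome-associated RNA they summed to 1220 to 4999 CPM in controls and 2843 to 8603 CPM after deletion. Fewer cells of a type and less RNA per cell cannot be told apart in such bulk libraries.

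Hoxd13 stood above all other Hox genes in level. Hoxd13, which patterns digits and the genital tubercle (chromosome 2, 74668310 to 74671599), was at 101, 75.0 and 185 CPM in control total RNA (replicates 1, 2 and 3) and at 101, 85.0 and 169 CPM in HTT-deleted total RNA. In ribosome-associated RNA it was at 111, 84.0 and 197 CPM in controls and at 95.3, 86.0 and 197 CPM in HTT-deleted cells. Replicate 3 was the highest in all 4 groups, and the groups overlapped. Per kilobase of annotated exon, Hoxd13 averaged 49.9 CPM over the 12 libraries, Hoxa10 11.0, Hoxc8 10.8, Hoxd8 8.47, Hoxa13 8.41 and Hoxc6 8.20. Divided by the length of the longest transcript instead, the same 6 genes led, with Hoxc6 moving ahead of Hoxd8 and Hoxa13. The ranges of the last 5 over the libraries overlapped.

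Of the 39 members, 31 averaged at least 1 CPM and 11 at least 10 CPM. Hoxb1, a gene of the hindbrain, had 0 counts in all 12 libraries, which allows up to 3 counts in each, and Hoxd1 had 0 to 2. These 2 members stayed under 3 counts in every library. Hoxb13 had 0 to 4 counts and Hoxc12 0 to 8. The other 35 members passed the filter on low counts in the fit of all 12 libraries.

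**Figure D1:**
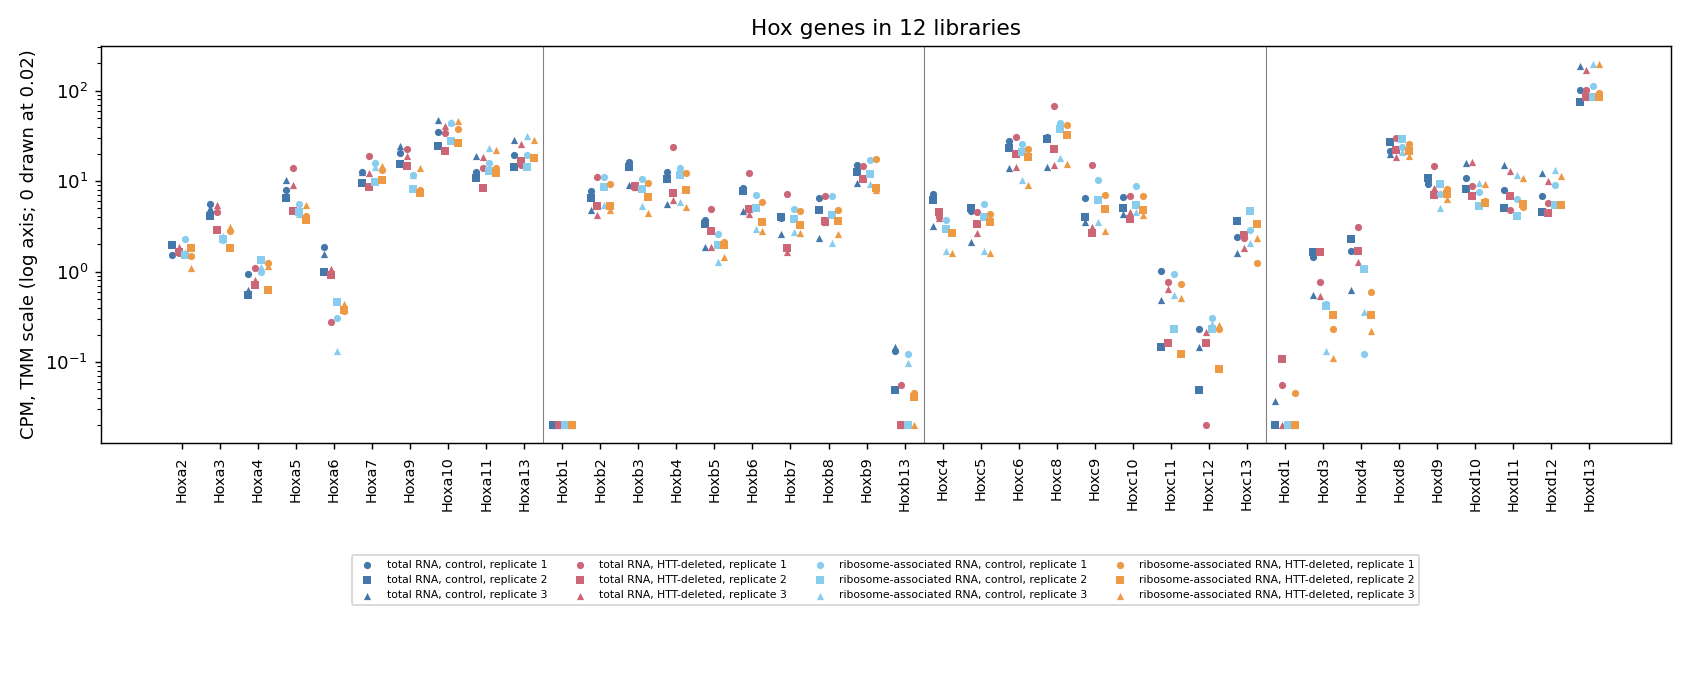
Level of the Hox genes, 1 member not drawn (CPM, TMM scale, log axis), in the 12 libraries, ordered by cluster and paralog number, with colour for the group and marker shape for the replicate number. Hoxd13 lies above every other member in each library, and Hoxb1 is drawn at the 0 mark throughout.

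Cluster D carried the largest share of the summed Hox level per kilobase. Its share was 43.9% ± 9.42 in control total RNA, 44.0% ± 9.75 in HTT-deleted total RNA, 44.6% ± 10.4 in control ribosome-associated RNA and 45.7% ± 10.1 in HTT-deleted ribosome-associated RNA (mean ± SD, n = 3 each). Hoxd13 alone gave 28.4% ± 9.43 in control and 28.9% ± 8.96 in HTT-deleted total RNA. Cluster A held 24.1 to 25.1% by group mean, cluster C 17.1 to 18.5% and cluster B 11.9 to 13.8%. By paralog number, the 4 genes of number 13 together held 34.0 to 38.7% by group mean, those of number 10 held 11.0 to 11.96% and those of number 8 held 11.8 to 13.9%. Those of number 2 held 1.76 to 2.09% and those of number 3 held 1.41 to 2.63%. Without division by exon length, number 3 held 2.49 to 4.58%. The 4 groups differed in these shares by less than the SD between their libraries for cluster D and for Hoxd13. The summed level of all members was 434 ± 66.1 CPM in control and 434 ± 100 CPM in HTT-deleted total RNA, and 431 ± 60.7 and 397 ± 68.3 CPM in ribosome-associated RNA (n = 3 each).

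**Figure D2:**
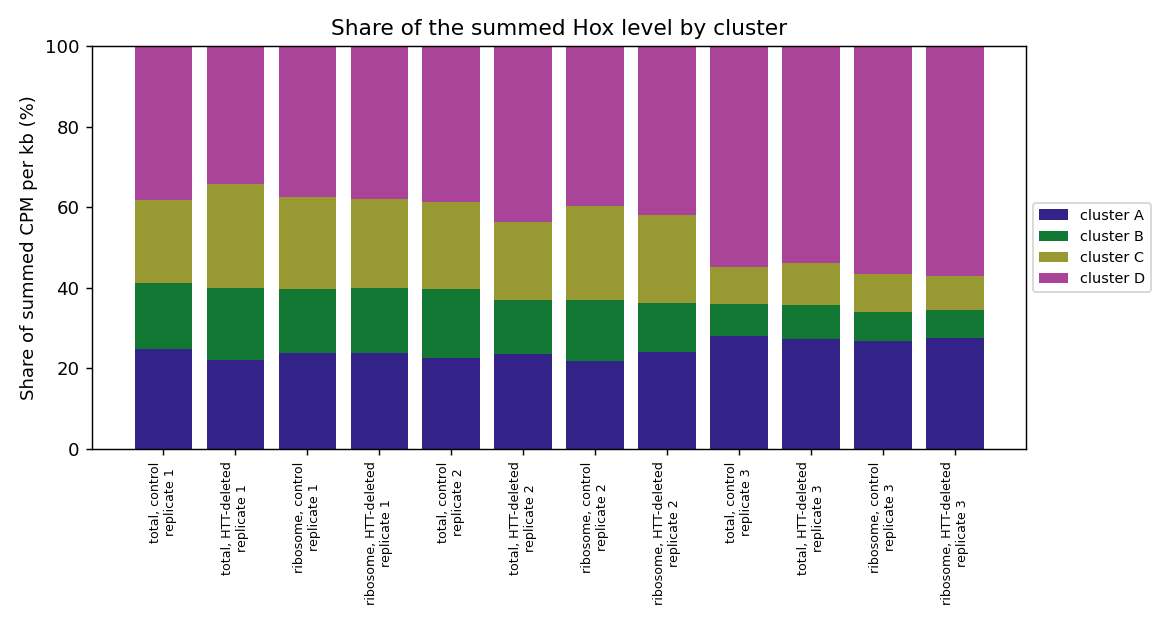
Share of the summed Hox level (CPM per kilobase of exon, in percent) held by clusters A to D in each library, with libraries grouped by replicate number. Cluster D takes 53.8 to 57.1% in the 4 libraries of replicate 3 and 34.3 to 43.8% in the other 8.

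The Hox code differed between replicate numbers. In all 4 libraries of replicate 3, Hoxa11, Hoxa13, Hoxd11, Hoxd12 and Hoxd13, which pattern the distal limb and the posterior trunk, lay above the 8 other libraries, 5 of 35 members against 3.54% of the 15574 genes tested. Another 7 (Hoxb4, Hoxb5, Hoxb8, Hoxc5, Hoxc6, Hoxc8 and Hoxd8), which pattern the trunk and its limb levels, lay below the 8 others in replicate 3, against 2.68% of genes. These are descriptions of cultures or passages, without a test, and the 4 libraries of a number are no independent samples.

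Hoxa13, a partner of Hoxd13 in the autopod, was at 19.4, 14.4 and 28.4 CPM in control and at 15.0, 16.6 and 26.0 CPM in HTT-deleted total RNA (replicates 1, 2 and 3). On ribosomes it was at 19.2, 14.4 and 31.4 CPM in controls and at 18.5, 17.9 and 28.4 CPM after deletion. Replicate 3 was above replicates 1 and 2 in each group. Hoxa10, which patterns the upper limb segments, was at 34.6, 24.6 and 47.3 CPM in control and at 34.1, 21.6 and 40.6 CPM in HTT-deleted total RNA. Its ribosome-associated RNA was at 43.5, 28.1 and 45.0 CPM in controls and at 37.8, 26.0 and 46.7 CPM after deletion. Replicate 2 was the lowest in every group for this gene.

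Hoxc8, a gene of the thoracic level, was at 30.8, 29.1 and 14.4 CPM in control and at 68.4, 22.6 and 15.2 CPM in HTT-deleted total RNA. In ribosome-associated RNA it was at 43.5, 37.6 and 18.2 CPM in controls and at 41.3, 32.0 and 15.4 CPM after deletion. Replicate 3 was the lowest in each group, and the value of 68.4 CPM came from the library that stood apart. Hoxc6, of the forelimb and upper thoracic level, was at 27.4, 23.3 and 13.8 CPM in control and at 30.9, 19.9 and 14.2 CPM in HTT-deleted total RNA. The ribosome-associated values were 26.0, 21.2 and 10.3 CPM in controls and 22.6, 18.3 and 9.13 CPM after deletion. It too was lowest in replicate 3 in each group.

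Hoxd8 was at 21.3, 27 and 20.03 CPM in control and at 30.3, 21.9 and 18.5 CPM in HTT-deleted total RNA. On ribosomes it was at 23.8, 28.8 and 20.9 CPM in controls and at 26.0, 21.4 and 19.0 CPM after deletion. Its ratio of highest to lowest library was the smallest of the 6 genes of highest CPM, and replicate 3 was again lowest. Hoxb9, the gene of cluster B with the highest CPM, was at 15.2, 12.7 and 9.52 CPM in control and at 14.5, 10.4 and 10.9 CPM in HTT-deleted total RNA. Its ribosome-associated RNA was at 17.2, 12.1 and 9.18 CPM in controls and at 17.7, 8.43 and 7.99 CPM after deletion. Replicate 1 was the highest in every group.

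The direction followed cluster and position. The mean CPM of replicate 3 over that of replicates 1 and 2 was above 1 for 7 of 7 tested members of clusters A and D with paralog numbers 10 to 13, with a median log2 ratio of 0.79 and a range of 0.52 (Hoxa10) to 1.14 (Hoxd11). It was below 1 for 15 of 16 tested members of clusters B and C, with a median of -0.83 and a range of -1.27 (Hoxc8) to 0.09 (Hoxc11). Within cluster D the sign turned between Hoxd9 at -0.29 and Hoxd10 at 0.79. In cluster A, 9 of 11 members lay above 0, with a median of 0.29, and Hoxa2 at -0.07 and Hoxa4 at -0.03 lay below. Against replicate 1 alone the median of cluster A was 0.15, with 7 of 11 above 0, and against replicate 2 alone 0.53, with 10 of 11 above 0. The 7 members of clusters A and D with numbers 10 to 13 lay above 0 against either. Over all 15574 genes the median log2 ratio was -0.01.

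**Figure D3:**
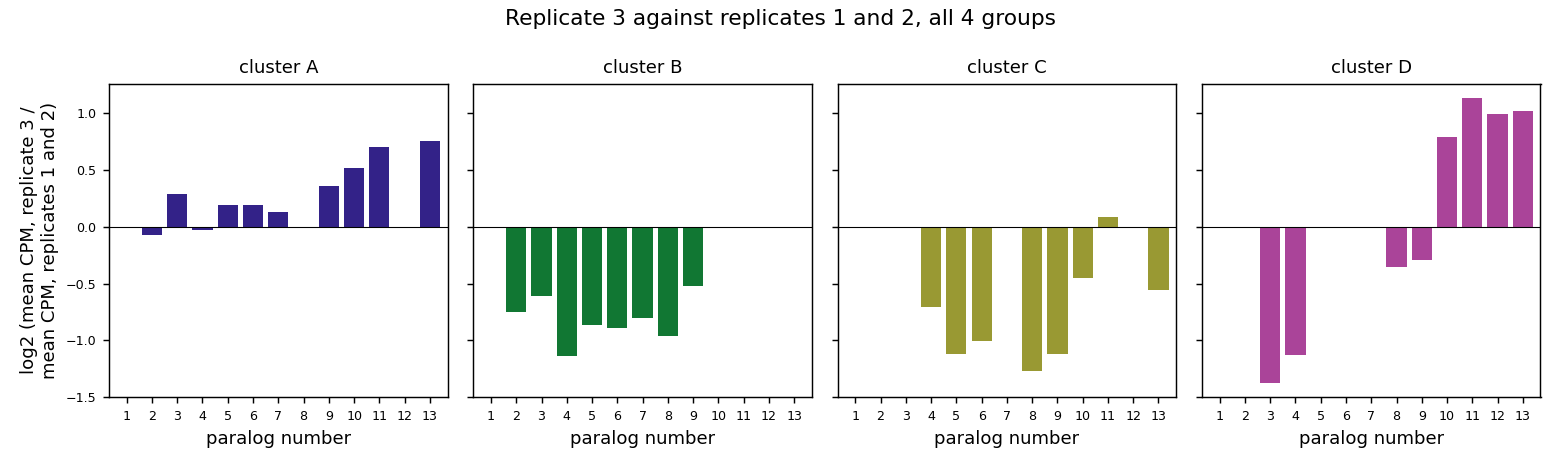
Log2 ratio of the mean CPM of the 4 libraries of replicate 3 to the mean CPM of the 8 libraries of replicates 1 and 2, for the tested Hox genes by paralog number, 1 panel per cluster and 1 member not drawn. Bars of clusters A and D with numbers 10 to 13 lie above 0, and those of clusters B and C lie below 0 except Hoxc11.

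Replicates 1 and 2 differed as well. Hoxb4, Hoxb9, Hoxc9, Hoxc10 and Hoxc11 lay above the 8 others in all 4 libraries of replicate 1, 5 of 35 members against 2.40% of genes, and no member lay below them there, against 1.89% of genes. Hoxa7, Hoxa10, Hoxc11, Hoxd12 and Hoxd13 lay below the 8 others in replicate 2, 5 of 35 against 2.25% of genes, and none lay above, against 4.10% of genes. Hoxc11 showed the widest gap, with 0.734 to 1.01 CPM in replicate 1, 0.124 to 0.229 CPM in replicate 2 and 0.480 to 0.638 CPM in replicate 3. Its counts were low, 14 to 31 per library in replicate 1 and 3 to 5 in replicate 2, at or near the floor of 3. Deviations of the 35 members from their group means were correlated between libraries of the same number. Between total and ribosome-associated libraries of a suspension, r was 0.731, 0.888 and 0.920 in controls and 0.648, 0.476 and 0.860 in HTT-deleted cells (replicates 1, 2 and 3). Between control and HTT-deleted libraries it was 0.712, 0.713 and 0.942 on ribosomes and 0.511, 0.445 and 0.875 in total RNA. The value of 0.445 was below the highest r with another number, 0.462, and the other 11 were above theirs. These are correlations across genes, which are not independent. Deviations from a mean of 3 libraries cancel within a group, which by itself lowers r between different numbers.

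Regional genes outside the clusters also separated the replicate numbers, as did cell type markers. Of 34 tested genes of a list of limb and regional identity, 4 lay above and 4 below the other libraries in replicate 3, 8 above and 1 below in replicate 2, and 0 above and 4 below in replicate 1. Of 7 tested epithelial and mesothelial markers, 4 lay below the other libraries in replicate 3 and Cdh1 did so in replicate 2. Of 7 tested muscle and cartilage markers, 4 lay above the others in replicate 2 and 3 lay below them in replicate 1. In replicate 3, Col2a1, the highest of them, lay above and 1 lay below. The list's sums were 41.9 to 53.7 CPM in replicate 1, and overlapped at 127.5 to 154 CPM in replicate 2 and 119 to 146 CPM in replicate 3. Of 7 tested neural markers, 1 lay above and 3 below in replicate 3, and 1 below in replicate 2. Of 14 fibroblast markers, 4 lay above in replicate 2 and 2 below in replicate 3. The shares over all genes given above are the background of these counts. Examples chosen after their values were seen are Tbx4, Tbx5, Alx1 and Evx2. Tbx4, a hindlimb gene, was at 48.5 to 58.5 CPM in replicate 3 and 17.3 to 35.0 CPM elsewhere. Tbx5, a forelimb gene, was at 9.98 to 13.2 CPM in replicate 3, 4.75 to 10.1 CPM in replicate 1 and 6.90 to 9.44 CPM in replicate 2. Alx1, a craniofacial gene, was at 14.7 to 17.5 CPM in replicate 2 and 0.159 to 0.806 CPM elsewhere. Evx2, which adjoins Hoxd13 at the end of cluster D, was at 7.36 to 9.66 CPM in replicate 3 and 3.09 to 5.34 CPM elsewhere. It was the 1 of 21 tested genes flanking the clusters that lay above the others in replicate 3, against 3.54% of genes, and 0 lay below. Among macrophage markers, 9 of 18 were highest in all 4 libraries of replicate 1, with sums of 3304 to 8603 CPM there, 806 to 2843 CPM in replicate 2 and 1879 to 3740 CPM in replicate 3. The part of these differences in the Hox pattern was not tested.

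In total RNA no Hox gene passed the test between HTT-deleted and control cells. The test was the quasi-likelihood test of edgeR, with p-values adjusted over all 14759 genes by Benjamini-Hochberg, and a gene was called at an adjusted p under 0.05. It called 0 of 35 members, and the background was 0%, since no gene at all passed. At an unadjusted p under 0.05 there were 0 members and 44 genes. DESeq2 called 0 members too, with 1 member under an unadjusted 0.05. Log2 fold changes ran from -0.94 (Hoxa6) to 0.61 (Hoxc9), with 17 members above and 18 below 0 and a median of -0.02, against 0.01 over all genes. Without the HTT-deleted library of replicate 1 the median was -0.24, with 29 of 35 below 0, and without that of replicate 2 it was 0.14, with 27 above 0.

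Hoxb3, a hindbrain and neck gene, was the member whose groups did not overlap. It was at 16.2, 14.4 and 8.96 CPM in control and at 8.67, 8.89 and 8.50 CPM in HTT-deleted total RNA (replicates 1, 2 and 3). In ribosome-associated RNA it was at 10.5, 8.21 and 5.36 CPM in controls and at 9.54, 6.61 and 4.46 CPM after deletion. All HTT-deleted total RNA values lay below all control values; the nearest values were 8.89 and 8.96 CPM. The fold change on the log2 scale was -0.57 ± 0.25 (SE), with an adjusted p of 0.978 by edgeR. It was 1 of 35 members with all HTT-deleted libraries lower, against 2.60% of genes, and 0 of 35 had all of them higher, against 1.61%. Of its exon bases, 52.9% overlap Hoxb3os on the opposite strand, and whether reads were counted by strand is not given in the sources used.

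Hoxa6 had the lowest fold change. It was at 1.87, 0.989 and 1.55 CPM in control and at 0.276, 0.927 and 1.06 CPM in HTT-deleted total RNA, and at 0.310, 0.458 and 0.131 CPM in control and 0.367, 0.372 and 0.442 CPM in HTT-deleted ribosome-associated RNA. The total RNA groups overlapped through replicate 2 of the controls. The lowest value, 0.276 CPM, came from the library that stood apart. The log2 fold change in total RNA was -0.94 ± 0.52 (adjusted p = 0.978, edgeR), and without that library it was -0.56. In the authors' deposited table Hoxa6 is the 1 of 35 listed members called in total RNA, with a log2 fold change of -1.13 and a false discovery rate of 0.0166, beside 4.97% of 16974 genes. That table is named for RUVSeq, a method not used here, so its calls come from an unlike fit. Across same-numbered pairs, 4 members were lower in HTT-deleted total RNA in all 3 pairs, against 13.2% of genes, and 1 was higher, against 9.99%.

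In ribosome-associated RNA the Hox genes leaned lower after deletion of Htt, and again none passed the test. edgeR called 0 of 32 members and 0% of 14588 genes. At an unadjusted p under 0.05 there were 0 members and 110 genes, and DESeq2 called 0 members. The median log2 fold change of the 32 members was -0.16, against 0.00 over all genes, with 29 members below and 3 above 0. In clusters B and C, 16 of 16 members lay below 0, with medians of -0.22 and -0.25. In all 3 same-numbered pairs, 14 of 32 members were lower after deletion, against 15.6% of genes, and 1 was higher, against 16.1%. The 14 were Hoxa11, Hoxd12, 5 members of cluster B and 7 of cluster C. Members are not independent of each other, so these counts of members rest on 3 pairs of libraries. No member had all its HTT-deleted libraries below all controls, against 2.82% of genes, or above, against 2.63%.

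The lean varied with the libraries included. With a replicate block the median of the members was -0.16, with 27 of 32 below 0, and with pairs 2 and 3 and the block it was -0.11, with 21 of 33 below 0. In the fit without the block, leaving out 1 library also unbalances the replicate numbers. Without the control library of replicate 1, which differed in its relation to exonic length, the median was 0.03, and without that of replicate 3 it was -0.30. Without the HTT-deleted library of replicate 1 it was -0.28. With a replicate block, 1.46% of genes rose and 0.233% fell, and 0 of 32 members were called. In that fit 10 of 18 macrophage markers rose, and the part of such cells in the Hox values was not tested. The authors' deposited table lists 0 of 36 members as called there, beside 4.21% of 16235 genes, with a median log2 fold change of -0.19 and 30 members below 0. That table rests on the same libraries and is named for RUVSeq, so the shares of genes called come from unlike fits.

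**Figure D4:**
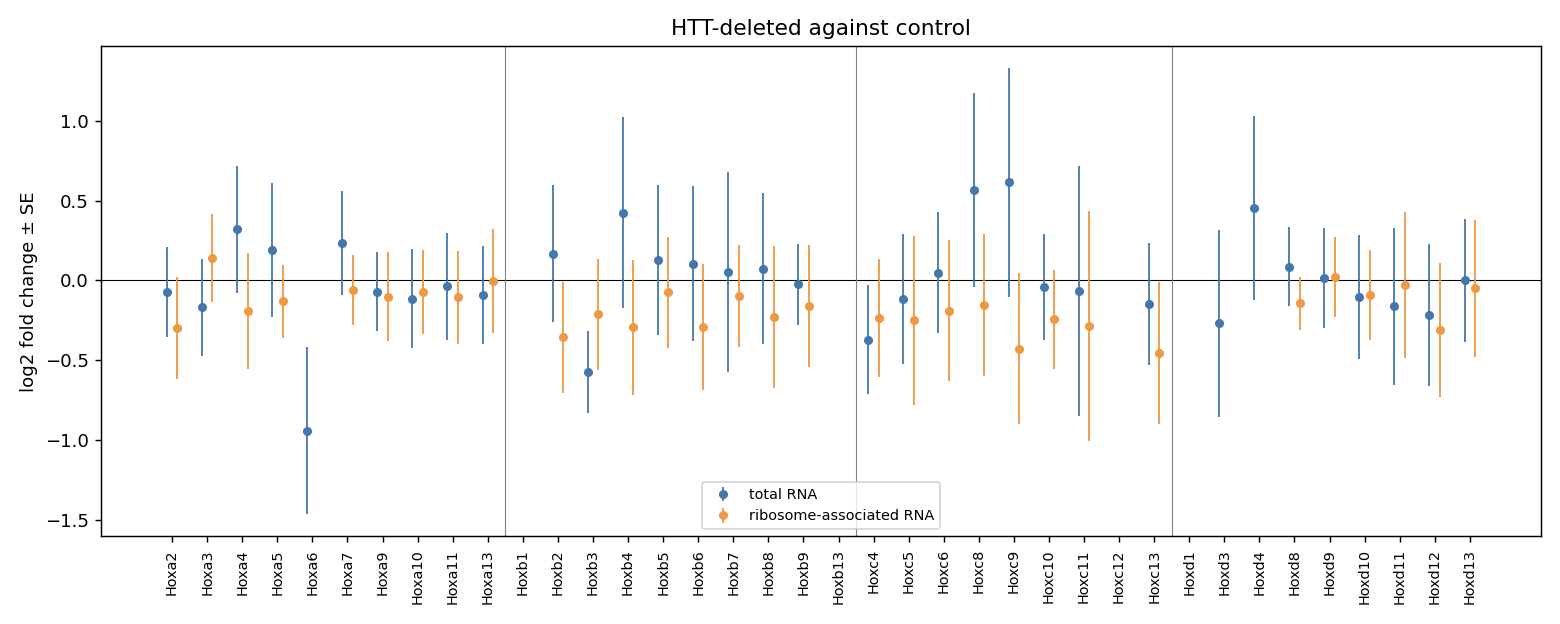
Log2 fold change of HTT-deleted against control cells for the tested Hox genes, 1 member not drawn, in each fraction, with bars for the SE. In ribosome-associated RNA 29 points lie below 0, most of them by less than their SE.

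Whether the effect of deletion differed between fractions was tested over all 12 libraries. edgeR called 0 of 35 members and 0% of 15574 genes, with 0 members and 85 genes at an unadjusted p under 0.05, and DESeq2 called 0 members. The median of the members was -0.17, with 24 below and 11 above 0, against 0.01 over all genes. Without the HTT-deleted total RNA library of replicate 1 that median turned to 0.14, and without the control ribosome-associated library of replicate 1 to 0.05. The largest term was that of Hoxa6 at 1.39 ± 0.77 (adjusted p = 1.00, edgeR), and without that total RNA library it was 1.02.

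Between fractions in controls, the fit without the replicate block called Hox genes of cluster A only. The fit that pairs fractions of a suspension, given below, called members of all 4 clusters. Without the block, ribosome-associated against total RNA called 4 of 35 members in control cells. All were lower on ribosomes and all in cluster A: Hoxa3, Hoxa5, Hoxa6 and Hoxa9. Over all 14990 genes 25.0% were called, 10.0% higher and 15.0% lower, so the members' share was below the background. No member was called higher. The median of the members was -0.03, against 0.02 over all genes.

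Hoxa3, a gene of the pharyngeal arches and neck, was at 5.63, 4.15 and 5.05 CPM in control total RNA and at 2.23, 2.29 and 2.48 CPM in control ribosome-associated RNA (replicates 1, 2 and 3). In HTT-deleted cells it was at 4.58, 2.89 and 5.47 CPM in total and at 2.80, 1.82 and 3.09 CPM in ribosome-associated RNA. The control fractions did not overlap, while the HTT-deleted fractions did. Its log2 fold change in controls was -1.09 ± 0.21 (adjusted p = 0.0124, edgeR).

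Hoxa5, which acts in lung and the cervical and thoracic axis, was at 7.99, 6.48 and 10.3 CPM in control total and at 5.64, 4.54 and 4.38 CPM in control ribosome-associated RNA. In HTT-deleted cells it was at 13.9, 4.64 and 8.98 CPM in total and at 4.08, 3.68 and 5.45 CPM in ribosome-associated RNA. Every control ribosome library lay below every control total library. The log2 fold change in controls was -0.78 ± 0.22 (adjusted p = 0.0406, edgeR).

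Hoxa6 had, in control cells, the largest fall of the 4. From the values given above, 0.989 to 1.87 CPM in total RNA stood against 0.131 to 0.458 CPM in ribosome-associated RNA. The log2 fold change was -2.34 ± 0.51 (adjusted p = 0.0179, edgeR), at a low level of 4 to 57 counts per library. In HTT-deleted cells it did not pass the filter on low counts.

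Hoxa9, a gene of the trunk and of blood progenitors, was at 20.4, 15.4 and 24.6 CPM in control total and at 11.7, 8.21 and 11.7 CPM in control ribosome-associated RNA. In HTT-deleted cells it was at 22.4, 14.7 and 19.1 CPM in total and at 8.03, 7.44 and 13.9 CPM in ribosome-associated RNA. The fractions did not overlap in either kind of cell. The log2 fold change was -0.94 ± 0.22 in controls (adjusted p = 0.0211) and -0.94 ± 0.30 in HTT-deleted cells (adjusted p = 0.245, both edgeR).

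These calls varied with the libraries included, as did those over all genes. With all 6 libraries, 1499 genes were called higher and 2246 lower of 14990. Without the control total RNA library of replicate 1, 0 members were called, beside 385 genes higher and 1122 lower of 15205. Without the control ribosome-associated library of replicate 1, 1 member was called, beside 978 and 1693 of 15628. Without the control total RNA library of replicate 3, 2 members were called, beside 703 and 1494 of 15232. The replicate block, which compares fractions of the same suspension, called 17 members, 4 higher and 13 lower on ribosomes, against 24.3% of genes higher and 25.9% lower. Higher were Hoxc8 at 0.40 ± 0.08 (adjusted p = 0.00146), Hoxa11 at 0.28 ± 0.10, Hoxb2 at 0.36 ± 0.13 and Hoxc9 at 0.44 ± 0.16. Lower were the 4 named above and Hoxb3 at -0.73 ± 0.12, Hoxc4 at -0.98 ± 0.17, Hoxd10 at -0.64 ± 0.12, Hoxd3 at -1.91 ± 0.39, Hoxd4 at -1.53 ± 0.43, Hoxd9 at -0.55 ± 0.15, Hoxb6 at -0.50 ± 0.15, Hoxb5 at -0.61 ± 0.21 and Hoxd11 at -0.34 ± 0.12. In the same blocked fit 14 of 18 macrophage markers were higher in ribosome-associated RNA, and their part in the Hox values was not tested.

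In HTT-deleted cells 0 of 34 members were called between fractions, beside 0.896% of 14627 genes. DESeq2 called 1 of 34 members, Hoxd4, as lower, beside 121 genes higher and 745 lower of 14627. By edgeR, 5 members and 1785 genes were under an unadjusted p of 0.05. The median of the members was -0.22, against 0.00 over all genes, with 25 below and 9 above 0. This comparison held the library that stood apart. Without that library the median was 0.02 and 1 of 35 members was called, as lower, beside 1203 genes higher and 1805 lower of 15141. Another fit left out the replicate 1 pair and used the block, which leaves 1 residual degree of freedom. It called 17 of 35 members, 5 higher and 12 lower, against 27.7% and 27.9% of genes. Of the members lower on ribosomes, 10 were called both there and in the blocked fit of the controls, 76.9% of the control list and 83.3% of the HTT-deleted list, against 88.1% and 81.6% over all genes. They were Hoxa3, Hoxa5, Hoxa6, Hoxa9, Hoxb3, Hoxb6, Hoxc4, Hoxd3, Hoxd4 and Hoxd10. Hoxa11 and Hoxc8 were called higher in both. With all 3 pairs of HTT-deleted cells Hoxc8 was at -0.27 without the block and -0.08 with it, so its sign turned with replicate 1 left out.

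**Figure D5:**
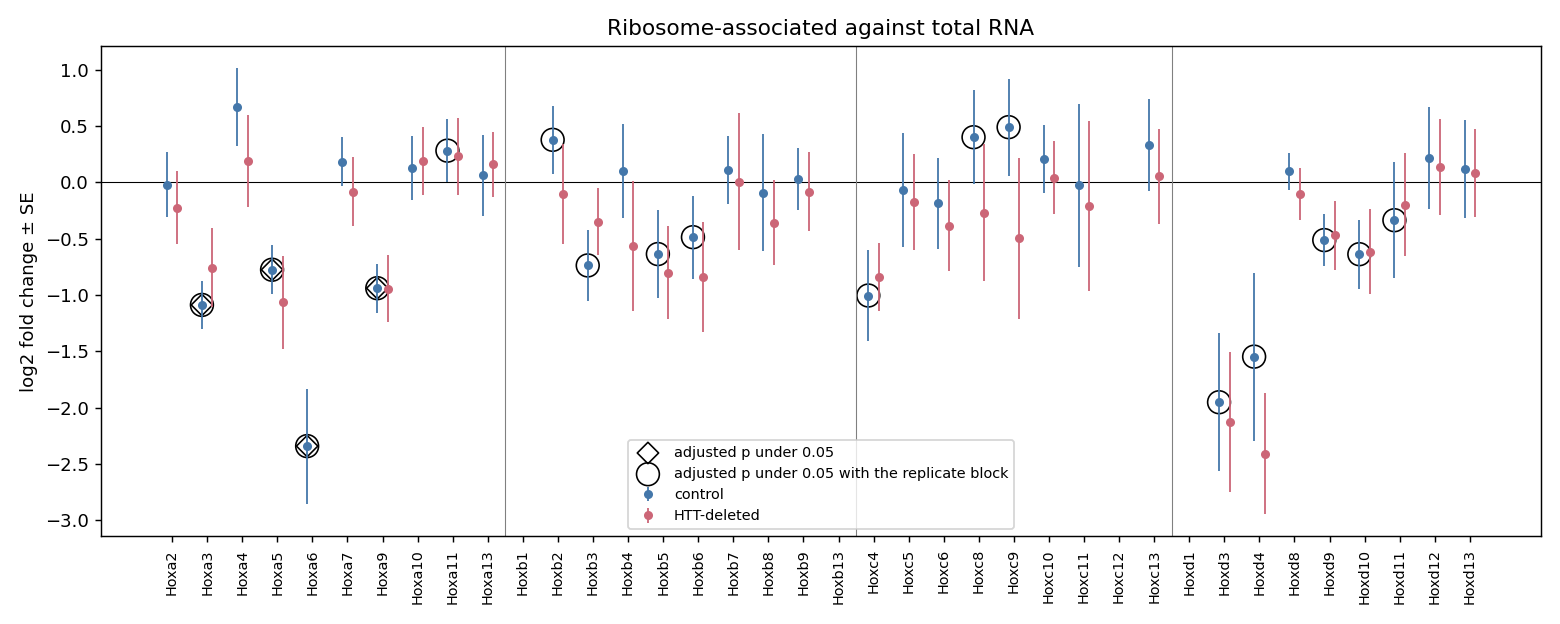
Log2 fold change of ribosome-associated against total RNA for the tested Hox genes, 1 member not drawn, in control and in HTT-deleted cells, with bars for the SE. Diamonds mark the 4 members called in controls and circles the 17 called there with the replicate block.

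Fold changes between fractions also varied with features of the gene models. In controls, 8 tested members with more than 5% of exon bases shared with another gene of the same strand had a median log2 fold change of -0.49, 7 of them below 0, against 0.06 for the other 27. Hoxd3 shares 62.4% and Hoxd4 52.3% of exon bases with same-strand genes, so their counts are uncertain. The 9 members with more than 10% of exon bases found only in noncoding transcripts had a median of -0.34, against 0.00 for the other 26. Hoxa3 has 55.8% of its exon bases in such transcripts alone, Hoxa9 42.2% and Hoxd11 73.6%, while Hoxa5 and Hoxa6 have 0%. Paralogs 1 to 8 had a median of -0.19 (14 of 21 below 0), and paralogs 9 to 13 a median of 0.09 (5 of 14 below 0). The 5 members with a miR-196 site had a median of 0.11, and the 2 tested members with a miR-10 site, Hoxa3 and Hoxb3, were at -1.09 and -0.74. In HTT-deleted cells, with the library that stood apart included, the members with a miR-196 site had a median of -0.27 and paralogs 9 to 13 one of -0.02. The medians of the same-strand set (-0.42), the noncoding set (-0.39) and paralogs 1 to 8 (-0.35) were below 0 there too. These medians are descriptions, and the groups of members overlap.

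Partners and regulators of Hox genes did not pass the test between HTT-deleted and control cells in either fraction. Of the TALE cofactors, homeodomain proteins that bind DNA together with HOX proteins, 9 of 9 were tested, with medians of -0.01 in both fractions. The 24 Polycomb genes, which keep Hox clusters silent, had medians of 0.02 and -0.04, with Cbx6 highest. The 13 Trithorax genes and histone demethylases, which keep them active, had medians of -0.13 and 0.01, with Psip1 highest. Of the retinoic acid and axial regulators, 17 of 24 were tested in each fraction, with medians of -0.09 and -0.05. Of noncoding RNAs of the clusters 10 were tested, with medians of 0.22 and -0.26. Between fractions in controls, where 15.0% of genes were lower and 10.0% higher on ribosomes, 5 of 24 Polycomb genes fell (among them Cbx7 at -1.35 ± 0.18, Phf1 and Phc3). Of 13 Trithorax genes 6 fell and 1 rose (among them Kmt2a at -1.63 ± 0.15, Kmt2b and Kdm6b). With the block, 9 Polycomb genes fell and 2 rose, and 7 Trithorax genes fell and 1 rose, beside 25.9% and 24.3% of genes. Of the cofactors 1 fell, Pbx4 at -1.08 ± 0.31 (adjusted p = 0.0418, edgeR). The noncoding RNAs of the clusters had a median of -0.64 there, with 0 of 10 called, and 3 of them fell with the block. Genes flanking the clusters had a median of 0.17, with 5 of 20 higher on ribosomes and 0 lower.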

How the data were processed

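Per the labels, 250 ng of RNA with a quality number above 9 went into each stranded library. Per the submitters' processing notes, the authors ran FastQC, STAR 2.7.2b, HTSeq 0.11.1 and edgeR on GRCm38 (mm10). Each library's deposited file holds unnormalized counts by Ensembl gene. Its annotation release, strand setting and overlap mode are not given in the sources used. The authors also deposited a table of log2 fold changes and mean log2 CPM, likelihood ratio scores and p-values, which served only where named. That table is named for RUVSeq and edgeR, and RUVSeq was not used here. Of 55487 genes, 55394 had a symbol in GENCODE M21, whose exons gave lengths and overlaps. The 5 summary entries that name no gene were left out; reads in no feature were 2.64 to 7.73% and reads in several genes 2.09 to 2.68%.

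Counts were tested with edgeR 4.0.16 (R 4.3.3), with TMM, filterByExpr and a robust quasi-likelihood fit over all genes, in 5 comparisons. Fold changes and SE (from the F statistic and the fold change) come from these fits. CPM were scaled apart from them, with TMM factors over all 12 libraries. The code was checked on simulated counts with 1 spread for all genes, lower than the median spread in the HTT comparisons without the block. That check does not measure the power of the tests in these data. Alternatives were RLE, no filter, 5 CPM in 3 libraries, DESeq2 1.42.0, the replicate number as a block, all libraries in 1 fit and each library left out. Total and ribosome-associated RNA of a number share a suspension per the labels, so the number pairs the fractions. Whether control and HTT-deleted libraries of a number share a culture is not stated. All same-numbered libraries deviated together, with correlations across genes of 0.245 to 0.828. The block between control and HTT-deleted libraries rests on these correlations alone. Named with every value were members called, the 6 of highest CPM, the highest of each cluster, and members whose groups did not overlap in an HTT comparison; of other lists, up to 3 called genes or the highest. The members and lists were chosen with earlier results of these data known. The values of 1 member and 1 cofactor are not reported here one by one, and both stay in the counts and medians.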

Additional observations from a re-analysis of the deposited data

How the results depend on the processing

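Counting error limits members of few counts such as Hoxa6, Hoxc11, Hoxd3 and Hoxd4. In the HTT comparisons the median biological coefficient of variation of members was 0.348 in total and 0.313 in ribosome-associated RNA, against 0.250 and 0.168 over all genes, and with the replicate block it was 0.246 and 0.112, against 0.209 and 0.084. In the HTT comparisons and the interaction, 0 members were called under every alternative run, the replicate block and each left-out library included. In controls, ribosome-associated against total RNA called 4 of 35 members. It called 5 of 38 without a filter (genes higher and lower: 1565 and 2304 of 26486) and 5 of 35 by DESeq2 (1910 and 2407 of 14990). It called 2 of 21 with 5 CPM in 3 libraries (1495 and 1968 of 11087) and 2 of 35 with all 12 libraries in 1 fit (338 and 1308 of 15574). It called 17 of 35 with the replicate block (24.3% and 25.9% of genes) or with pairs 2 and 3 and the block (3657 and 3788 of 15147). With 1 library left out it called 0 to 4 members, and genes from 385 and 1122 of 15205 to 1189 and 2062 of 15364. In HTT-deleted cells the same comparison called 0 of 34 members, 1 of 34 by DESeq2 and 17 of 35 with pairs 2 and 3 and the block. With 1 library left out it called 0 to 1. For the fits that called a member, the counts or shares over all genes are given above. Without 1 library of a group, the other libraries set its spread. Hoxc8 turned from -0.27 to 0.29 (log2, adjusted p = 0.00498, edgeR) in HTT-deleted cells with pairs 2 and 3 and the block. The cause was not tested for these changes, beyond the fewer libraries. The replicate block changed no other call of members. Shares of cluster D and of Hoxd13 moved by less than 1 SD under every alternative run.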
